A study of Homo sapiens with 22 samples.

Results

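The regions described here are estrogen receptor binding sites in Ishikawa cells that gave peaks with the wild-type receptor under estradiol and none with the D538G receptor. They were chosen by the presence of peaks: all 20 peak lists were merged wherever peaks overlapped by at least 1 bp on chromosomes 1 to 22 and X, and a region was kept if at least 2 of 4 wild-type E2 lists, at most 1 of 4 wild-type DMSO lists and none of 12 D538G lists had a peak in it. Of 93599 merged regions, 26597 were called in 2 or more of the wild-type E2 lists, and 722 of these met the whole rule (2.71%). They are called wild-type-only regions below, a name that rests on where peaks were called in these lists and on nothing else. The remaining 25875 regions with peaks in at least 2 wild-type E2 lists served for comparison.

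Estrogen receptor alpha, encoded by ESR1, is a nuclear receptor that binds DNA at estrogen response elements, often far from promoters, and recruits coactivators when estradiol (E2) occupies its ligand-binding domain. D538G is a recurrent substitution in the helix of that domain that closes over the hormone pocket, and it is known to favour the active form of the receptor without hormone. In the endometrium the receptor drives the growth of the epithelium under estrogen, and Ishikawa is an established endometrial adenocarcinoma line used to study it.

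Every cell line was an Ishikawa clone whose ESR1 carried a FLAG tag, and chromatin was precipitated with an anti-FLAG antibody after hormone-deprived culture. The wild-type groups came from 2 clones (WT ESR1) and the D538G groups from 3 (D538G ESR1), each clone with 2 replicates, treated for 1 h with 10 nM E2 or with DMSO, its solvent. This gave 4 wild-type E2, 4 wild-type DMSO, 6 D538G E2 and 6 D538G DMSO lists. Because each genotype was a handful of clones, a difference between genotypes and a difference between clones cannot be told apart beyond the 2 and 3 clones at hand. Peak lists hold no RNA measurement, so the cell type was not checked against its markers.

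List lengths set which regions could meet the rule. The wild-type E2 lists held 5757 to 35340 peaks, the D538G E2 lists 1976 to 49219 and the D538G DMSO lists 1619 to 54895. Of the wild-type DMSO lists, 3 held 44, 50 and 1080 peaks, while the clone 1 replicate 2 list stood apart with 29117. The peak names in all 5 replicate 1 DMSO lists contain the word Ctl (written ctl in the wild-type lists), and so do those of the list labelled D538G E2 clone 2 replicate 1, which goes against its label. Groups were taken from the labels, and the main counts and tests are also given without that list and its DMSO partner. Without that pair the rule kept 732 regions in place of 722, and 2276 in place of 2068 had a peak in exactly 1 D538G list. The peak names of 4 lists, E2 and DMSO of D538G clones 1 and 2 in replicate 1, include Input, unlike the other 16, and the sources used here do not say which lists had an input as background.

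Most wild-type-only regions were seen in the fewest lists the rule allows. Peaks were present in 2 wild-type E2 lists at 575 of them, in 3 at 102 and in all 4 at 45. The 4 wild-type E2 lists contributed unequally: 212 regions had a peak in clone 1 replicate 1, 642 in clone 1 replicate 2, 122 in clone 2 replicate 1 and 660 in clone 2 replicate 2. The long replicate 2 lists therefore carried the set, and 476 regions (65.9%) had peaks in both replicate 2 lists and in neither replicate 1 list. This was not particular to the set. In the same order, the 4 lists had peaks at 29.4%, 88.9%, 16.9% and 91.4% of wild-type-only regions. At the comparison regions the shares were 27.4%, 98.2%, 20.2% and 98.1%. Both replicate 2 lists, and so both clones, had peaks at 599 of 722 wild-type-only regions and 25008 of 25875 comparison regions. Both wild-type clones had a peak at 659 regions (91.3%), against 38 with peaks in clone 1 alone and 25 in clone 2 alone. Leaving out the wild-type E2 replicate 2 list of clone 1 reduced the set to 209 regions, and leaving out that of clone 2 to 205.

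Few regions with wild-type peaks lacked D538G peaks. Among the 25709 regions with peaks in at least 2 wild-type E2 lists and at most 1 wild-type DMSO list, the largest class, 4704 regions, had peaks in 4 D538G lists, and 364 had peaks in all 12. Exactly 1 D538G list had a peak at 2068 regions, which lie just outside the rule. In 1402 of these (67.8%) the list was a DMSO list and in 666 (32.2%) an E2 list. A single list, D538G DMSO clone 1 replicate 2 with 50380 peaks, accounted for 1277 of them, followed by D538G E2 clone 3 replicate 1 with 323, E2 clone 3 replicate 2 with 190, E2 clone 1 replicate 1 with 135 and DMSO clone 2 replicate 2 with 123. The set would have held 2095 regions without that DMSO list and 1051 without the E2 list of clone 3 replicate 1. The size of the set, 722 with all lists, thus depended heavily on 1 D538G DMSO list.

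**Figure D1:**
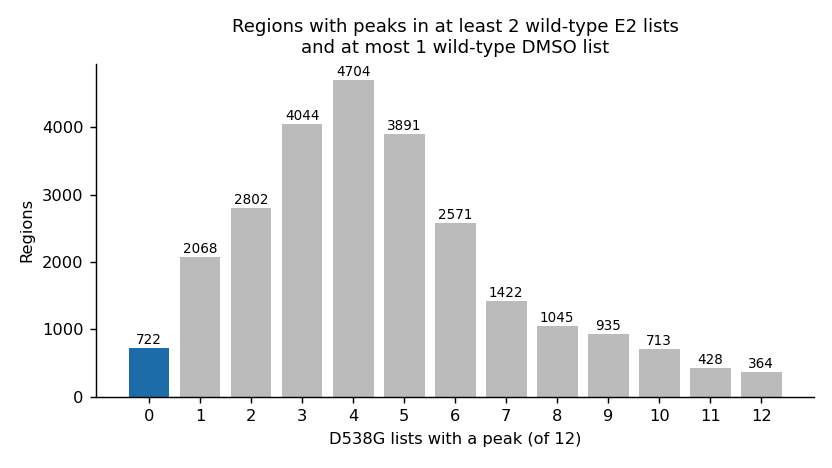
The bars count regions with peaks in at least 2 wild-type E2 lists and at most 1 wild-type DMSO list (vertical axis) by the number of D538G lists, of 12, that had a peak (horizontal axis). The blue bar is the 722 wild-type-only regions, and the 2068 regions with 1 D538G list stand next to it.

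The strongest regions just outside the rule had peaks in all 4 wild-type E2 lists and in 1 D538G list. At chr8:111188673-111189689 the wild-type E2 signal values were 46.5, 58.6, 43.6 and 53.0 (clone 1 replicates 1 and 2, then clone 2 replicates 1 and 2), and D538G E2 clone 3 replicate 1 had a peak of 50.8. At chr13:27050121-27050701 they were 48.4, 96.1, 21.04 and 49.3, with a peak of 14.5 in D538G DMSO clone 1 replicate 2. At chr20:48693131-48693619 they were 49.98, 40.3, 25.7 and 33.9, with a peak of 19.7 in D538G E2 clone 3 replicate 1. Signal values are those the authors deposited for each peak, and what they are relative to is not given in the sources used here. Strength is therefore compared below by the percentile of a peak's signal value within its own list. The first of these regions ranked at percentile 92.4, 88.6, 94.4 and 92.3 in the wild-type E2 lists and at 91.8 in the D538G list. So 1 D538G peak of rank similar to the wild-type peaks kept it from the set.

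Peaks at wild-type-only regions were weak within their lists. Their median percentile was 26.6 in wild-type E2 clone 1 replicate 1, 29.3 in clone 1 replicate 2, 26.5 in clone 2 replicate 1 and 27.9 in clone 2 replicate 2. At the comparison regions it was 54.2, 62.7, 52.4 and 57.3 in the same lists. Averaged over lists, the medians were 27.6 ± 1.32 and 56.6 ± 4.53 (SD, n = 4 lists each). The list medians of the 2 kinds of region did not overlap, while their quartile ranges did in all 4 lists. Strength and presence in other lists are linked, so these values describe the set and were not tested. The share of wild-type-only peaks above the middle of their list was 19.3%, 22.3%, 17.2% and 18.6%. Regions with 1 D538G peak lay between, with medians of 34.8, 39.5, 33.2 and 33.1.

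**Figure D2:**
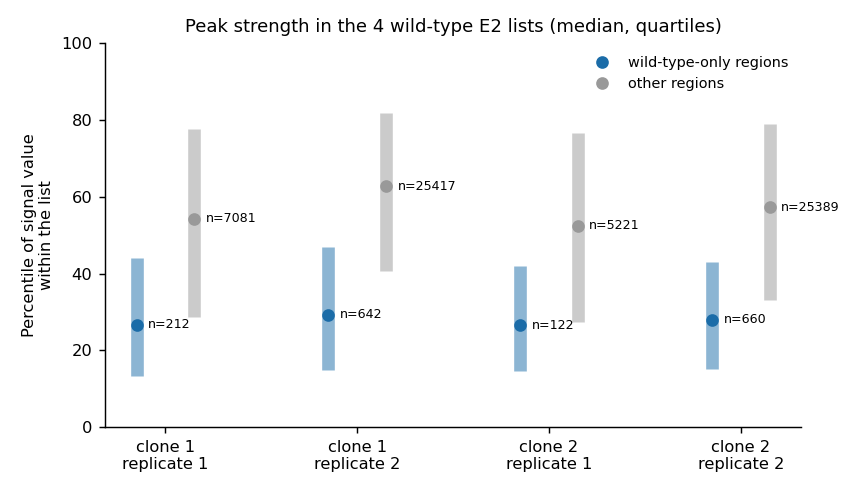
For each wild-type E2 list (horizontal axis) the points give the median percentile of a peak's signal value within that list (vertical axis) and the bars the quartiles, for wild-type-only regions (blue) and the other regions with peaks in at least 2 wild-type E2 lists (grey), with the number of regions. In every list the wild-type-only median lies between 26.5 and 29.3, and the other median between 52.4 and 62.7.

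Regions with peaks in all 4 wild-type E2 lists ranked higher and were wider, by the median, than those in 2 or 3. The median of the mean percentile was 28.8 for regions in 2 lists, 29.7 for 3 and 37.6 for 4, and the median width was 334, 372.5 and 460 bp. Over all 722 regions the width ran from 211 to 1444 bp with a median of 346.5, against 844 bp for the comparison regions. Among regions whose mean percentile lay between 19.1 and 41.0, the middle 50% of the wild-type-only regions, the median was 332 bp for 360 wild-type-only regions and 648 bp for 5839 others. A merged region grows with the number of lists that add a peak, so its width by number of lists is tied to the merging. The rule also leaves wild-type-only regions without D538G peaks, so their difference in width from the others is tied to the rule. The widest was chr6:168938350-168939793, 1444 bp, with peaks in both clone 1 lists (signal values of 22.0 and 42.4) and in neither clone 2 list.

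Weak as they were, the peaks of both clones had summits close to each other. At the 599 regions with peaks in both replicate 2 lists the summits were a median of 26 bp apart, and at the comparison regions also 26 bp. At equal strength, in the band of percentiles above, the medians were 28 and 35 bp. In replicate 1 the summits were 19.5 bp apart at 88 wild-type-only regions and 17 bp at the comparison regions. A summit gap of at most 50 bp was found at 72.5% of wild-type-only regions and at 71.2% of comparison regions in replicate 2, and in replicate 1 at 80.7% and 87.4%. These are descriptions over regions, which are not replicates of a condition. A gap cannot exceed the width of the merged region. Wild-type-only regions were narrower (median 346.5 against 844 bp, and 332 against 648 bp in the band), so the gaps were not compared on equal terms.

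Replicate 1 peaks at regions called in both replicate 2 lists varied with strength. Among regions with peaks in both replicate 2 lists and a mean percentile there above 80, the 8 wild-type-only regions had no peak in any wild-type E2 replicate 1 list, while 2946 of 5978 comparison regions did (49.3%). From percentile 60 to 80 the shares were 24.3% (9 of 37) and 21.9%. In the percentile range of 40 to 60 the shares were 29.6% (40 of 135) and 19.1%, and in the range of 20 to 40 a peak was found at 53 of 265 against 15.7%. Up to percentile 20 the shares were 13.6% (21 of 154) and 14.8%. The member with the highest mean percentile, 93.2, was chr19:19383885-19384333, with signal values of 92.9 in clone 1 replicate 2 and 51.8 in clone 2 replicate 2. The next was chr1:150693179-150693578, with 77.3 and 39.9. These regions were singled out after their values were seen. The strongest 5 regions all had peaks in both replicate 2 lists and nowhere else among wild-type E2 lists, so their wild-type binding was seen in both clones and in 1 of 2 replicates. Other strong regions, described below, had peaks in all 4 lists.

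Wild-type-only regions had few peaks without hormone. The 3 short wild-type DMSO lists had no peak in any of them, and at the comparison regions they had peaks at only 0.147%, 0.147% and 3.76%. The long list, clone 1 replicate 2, had a peak at 39 of the 722 (5.40%), against 66.5% of the comparison regions and 40.1% of the regions with 1 D538G peak. Within the band of equal strength the shares were 3.89% and 51.2%. Although the rule allowed 1 wild-type DMSO peak, that condition removed no region: all 722 regions with at least 2 wild-type E2 peaks and no D538G peak met it. The 39 regions had peaks in both replicate 2 E2 lists, with a median percentile of 43.4 in clone 1 and 20.9 in clone 2, and a median percentile of 32.2 in the DMSO list. Without them the set holds 683 regions. The rule used presence in the wild-type DMSO list directly only as a ceiling of 1 list. All comparison regions had a D538G peak, however, so the contrast is one between regions without and with D538G peaks. Presence in different lists may go together, so the contrast is tied to the rule and is a description. A difference of this size in a single list also has no replicate check.

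The shares in that DMSO list are also given by range of strength. They describe regions without and with D538G peaks, which the rule sets apart, and strength ranges do not remove that tie. Among regions with both replicate 2 E2 peaks, the list had a peak at 7.14% of wild-type-only regions and 47.3% of comparison regions with percentiles up to 20, at 5.28% and 55.7% from 20 to 40, at 7.41% and 67.5% from 40 to 60, at 5.41% and 74.5% from 60 to 80, and at 2 of 8 regions against 80.7% above 80. The share rose with strength among comparison regions and stayed under 8% among wild-type-only regions up to percentile 80.

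Whether the wild-type preference of such regions would be seen again in lists that had no part in choosing them was tested by holding out a replicate. The rule was applied to the 10 lists of 1 replicate number, which asks for peaks in both wild-type E2 lists and no peak in 6 D538G lists, and presence was then read in the 10 lists of the other replicate number. Each list's value is the share of selected regions with a peak over that of the other regions with peaks in both wild-type E2 lists, as a log2 ratio with 0.5 added to each count. A ratio of 0 means that the selected regions were found as often as the others.

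Selection on replicate 1 gave 119 regions, of which 88 overlap a wild-type-only region, and 5012 others. Read in replicate 2, the selected regions had a peak in 65.5% of cases in wild-type E2 clone 1 and 73.9% in clone 2 (others 95.1% and 97.1%). The D538G E2 lists had a peak at 0.84% in clone 1, 0.84% in clone 2 and 15.1% in clone 3 (others 67.5%, 30.4% and 62.3%). The D538G DMSO lists had a peak at 18.5%, 5.04% and 0% (others 75.5%, 49.3% and 25.2%). All 6 D538G lists lay below both wild-type E2 lists, in share and in ratio. The wild-type DMSO lists had a peak at 1.68% in clone 1 and 0% in clone 2 (others 37.8% and 17.2%).

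Selection on replicate 2 gave 1602 regions, of which 599 overlap a wild-type-only region, and 24050 others, and the reading in replicate 1 was different. The wild-type E2 lists had a peak at 48.8% of them in clone 1 and 35.7% in clone 2, above the others at 23.6% and 17.8%. The D538G E2 lists of clones 1 and 3 had a peak at 47.0% and 54.6%, also above the others at 26.7% and 38.8%. The D538G list labelled E2 of clone 2, whose peak names contain Ctl, had a peak at 15.1%, below the others at 66.8%. The D538G DMSO lists had a peak at 0.25%, 4.68% and 1.498% (others 42.2%, 13.5% and 31.8%). Regions without any D538G peak in replicate 2 were thus found in the D538G E2 replicate 1 lists of clones 1 and 3 about as often as in the wild-type E2 lists of replicate 1. At least 1 D538G E2 replicate 1 list had a peak at 999 of the 1602 regions (62.4%), and at least 1 D538G DMSO replicate 1 list at 87 (5.43%). Clones 1 and 3 both had an E2 peak at 638 (39.8%), and 601 regions had no D538G peak in replicate 1 at all.

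**Figure D3:**
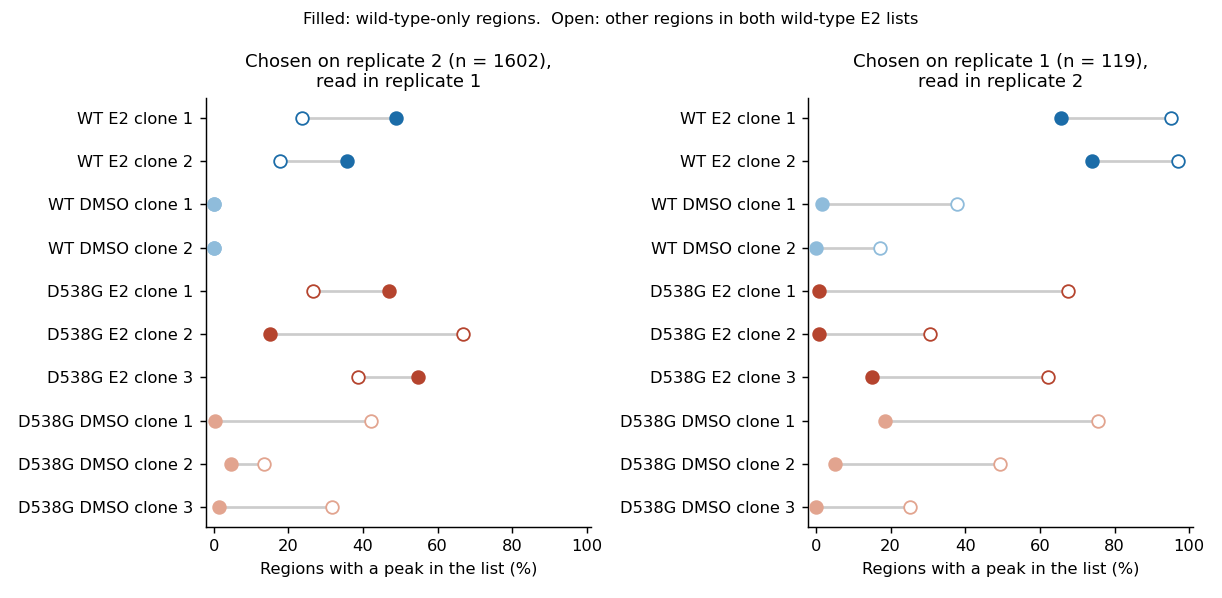
Each row is a held-out list, and the horizontal axis is the percentage of regions with a peak in it, for regions chosen on the other replicate number as wild-type-only (filled) and the other regions with peaks in both wild-type E2 lists (open). In the left panel (chosen on replicate 2, 1602 regions) the filled points of D538G E2 clones 1 and 3 stand at 47.0% and 54.6%, beside 48.8% and 35.7% for wild-type E2, while in the right panel (chosen on replicate 1, 119 regions) no D538G list passes 18.5%.

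Over all held-out lists the log2 ratio was 0.28 ± 0.87 in wild-type E2 (SD, n = 4 lists), -2.20 ± 2.64 in D538G E2 (n = 6) and -4.04 ± 2.24 in D538G DMSO (n = 6). The difference between wild-type E2 and D538G E2, 2.48, did not pass with both replicate numbers pooled (two-sided exact permutation p = 0.114, Benjamini-Hochberg adjusted over 3 tests p = 0.171). The pooled spread includes the shift between the 2 selected sets. Means in replicate 1 and 2 lists were -0.28 and -4.13 for D538G E2, and 1.03 and -0.47 for wild-type E2. Exchanging labels only between lists sharing a replicate number gave an exact permutation p of 0.05 (adjusted p = 0.075), also short of the threshold after adjustment. The difference was 1.30 among the replicate 1 lists and 3.66 among the replicate 2 lists, where the smallest p of 2 lists against 3 is 0.1. Without the D538G clone 2 replicate 1 pair it was 2.49 (exact permutation p = 0.159, adjusted p = 0.198). A preference for wild type under E2 was therefore not shown beyond the lists that chose the regions.

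Against D538G DMSO the wild-type E2 ratio was higher by 4.32, which passed the threshold with lists as units (two-sided exact permutation p = 0.00952, adjusted over the 3 tests p = 0.0286). The smallest p that lists as units allow is 0.00476. Genotype differs only between clones, and over means of 2 and 3 clones the call could not be made. There the exact permutation p was 0.1, the smallest possible, and the adjusted p was 0.3. It was 5.40 among replicate 1 lists and 3.24 among replicate 2 lists, so the direction was the same in each. Without the D538G clone 2 replicate 1 pair it was 4.82 (exact permutation p = 0.0159, adjusted p = 0.0476). The call did not withstand the loss of any of the 4 wild-type E2 lists or of D538G DMSO clone 2 replicate 2 or clone 3 replicate 1 (adjusted exact permutation p from 0.0714 to 0.107, differences from 4.06 to 4.59). Nor did it hold among regions of the middle strengths (3.61, exact permutation p = 0.0238, adjusted p = 0.0714) or with genotype permuted within the replicate number (exact permutation p = 0.02, adjusted p = 0.06). The comparison joins a difference in genotype and one in treatment, which the test does not separate.

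Within the mutant, E2 and DMSO lists differed by 1.84 in the ratio, inside the spread between lists (two-sided exact permutation p = 0.234, also 0.234 after adjustment). The difference was 4.10 among replicate 1 lists and -0.42 among replicate 2 lists, and E2 was the higher in 3 of 6 pairs of 1 clone and replicate number. Without the D538G clone 2 replicate 1 pair it was 2.33 (exact permutation p = 0.198). The replicate 2 value alone had an exact permutation p of 0.9, and the 2 values rest on different selected sets of 1602 and 119 regions. The replicate numbers also differ in list length: in replicate 2 the DMSO lists of clones 1 and 2 were the long ones, with 50380 and 54895 peaks against 6542 and 1976 under E2. The part of list length in this was not tested.

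Region by region, 35726 regions had peaks in at least 2 of the 10 E2 lists and were compared between wild type and D538G by Fisher's exact test. More peaks in wild type at an unadjusted p under 0.05 were found at 318 regions, which is 0.89% of those tested, and 147 of the 722 wild-type-only regions were among them, which the rule fixes. The reverse was found at 116 regions. Without D538G E2 clone 2 replicate 1 the 318 became 344, and they became 669 without clone 1 replicate 1 and 829 without clone 3 replicate 1. After adjustment 0 regions (0%) passed, with a smallest adjusted p of 1. The 45 regions with peaks in 4 of 4 wild-type E2 lists and none of 6 D538G E2 lists had an exact p of 0.00476, those in 3 lists 0.0333 and those in 2 lists 0.133. At this number of lists, then, no wild-type-only region passed on its own. The full contrast of 4 of 4 against 0 of 6 was present at 52 regions, and 7 of these had a peak in a D538G DMSO list and so lie outside the set.

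The regions best supported within the set are the 45 with peaks in all 4 wild-type E2 lists, out of 3889 regions with peaks in all 4 and at most 1 wild-type DMSO peak. The 25 with the highest mean percentile among them were 353 to 783 bp wide, ranked on average between percentile 36.0 and 76.0, and lay 390 to 514539 bp from the nearest D538G peak (median 7706 bp). None of these 25 had a peak in any wild-type DMSO list. Positions are hg19 coordinates, 1-based, and values are given as wild-type E2 signal in clone 1 replicates 1 and 2, then clone 2 replicates 1 and 2.

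The leading region was chr4:4581079-4581734, with signal values of 20.7, 29.0, 25.6 and 45.7, at percentiles 66.1, 68.9, 78.8 and 90.0. All 4 of its peaks ranked in the upper part of their lists, and the nearest D538G peak lay 2758 bp away. The next, chr3:79989019-79989743, had 35.1, 29.9, 19.9 and 29.3, at percentiles 85.5, 70.3, 68.4 and 78.3, with a D538G peak 1746 bp away. At these 2 regions even the lowest ranked of the 4 peaks stood at percentile 66.1 or above. At chr12:98885925-98886707 the values were 17.6, 51.0, 12.3 and 24.4, higher in replicate 2 than in replicate 1 in both clones, also by percentile (57.5, 86.0, 37.4 and 70.4). At chr21:17681754-17682284 they were 38.2, 12.9, 29.5 and 17.4, higher in replicate 1 in both clones, also by percentile (87.7, 25.1, 83.6 and 52.5). The order between replicates was thus not the same from region to region.

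Among the following regions, chr9:26266116-26266806 had signal values of 22.7, 14.96, 24.8 and 18.6, and its nearest D538G peak was 26158 bp away. At chr7:23389135-23389808 the values were 20.3, 18.2, 17.0 and 22.4, at percentiles 64.7, 46.3, 59.8 and 66.2. At chr11:127931203-127931874 they were 27.1, 14.8, 30.9 and 13.2, again with both replicate 1 values above both replicate 2 values. Replicates of a list differ in length, so signal values of different lists are not on a shown common scale. At chr21:17803434-17803979 they were 21.1, 16.2, 17.2 and 20.6. At chr1:202083872-202084502 they were 13.5, 28.5, 11.8 and 30.4. At chr11:122229041-122229721 they were 18.0, 13.2, 16.9 and 24.8. The clones differed less than the replicates at chr1:202083872-202084502, where each replicate number gave close values in both clones.

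Farther down, chr10:20220044-20220826 had 21.1, 9.97, 21.3 and 22.0 and stood 114135 bp from any D538G peak, with its clone 1 replicate 2 peak at percentile 9.69 of its list. At chr8:33972019-33972421 the values were 15.2, 16.1, 14.3 and 21.4, and the nearest D538G peak was 514539 bp away, the greatest distance among the 25. At chr2:203226853-203227297 they were 15.4, 18.3, 15.03 and 14.9. Of the 25 regions, 10 lay beyond 10 kb and 4 beyond 100 kb of any D538G peak, so the others had mutant binding in their neighbourhood. The nearest was at chr2:215110352-215110798, 390 bp from a D538G peak, with values of 12.02, 21.4, 9.87 and 28.2. When only the 5000 strongest peaks of a list were used, 20 of the 25 were still in the set. The others of the 25 were chr4:97392069-97392445, chr2:67273570-67274140, chr7:25064833-25065196, chr12:75339480-75339963, chr4:80550687-80551202, chr12:97955061-97955564, chr1:57157659-57158045, chr18:25328347-25328779, chr19:18447845-18448388 and chr16:20685177-20685529, besides a region of the chromosome 21 run described below. Their mean percentiles ran from 36.0 to 52.0.

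For most wild-type-only regions a D538G peak lay within 10 kb, which is not shown to be a trait of the set. Comparison regions hold D538G peaks themselves, so they give no like distance. Within 500 kb wild-type-only regions had fewer regions with D538G peaks than comparison regions (medians of 33 and 61). The distance to the nearest D538G peak ran from 13 to 771967 bp, with a median of 3143.5 bp, and 487 regions (67.5%) had one within 10 kb. A D538G peak within 500 bp was found at 144 regions (19.9%), and 578 regions are left without these. Only 42 (5.82%) lay beyond 100 kb. Without the D538G clone 2 replicate 1 pair the median was again 3143.5 bp. By the mirrored rule (peaks in at least 2 D538G E2 lists, at most 1 D538G DMSO list and no wild-type list) 2382 regions were found, at a median distance of 19156.5 bp from the nearest wild-type peak, with 3.36% within 500 bp. The 12 D538G lists cover more regions than the 8 wild-type lists, so the 2 distances do not measure the same thing. The farthest member, chr11:115375010-115375346, had peaks in both replicate 2 lists with signal values of 12.4 and 10.5.

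By the median, wild-type-only regions had fewer regions with peaks near them. Within 500 kb of their centres there was a median of 15 other regions with peaks in at least 2 wild-type E2 lists, against 18 for the comparison regions, and of 33 against 61 regions with D538G peaks. Without the D538G clone 2 replicate 1 pair the latter were 33 and 60. Within the band of equal strength the medians were 14 and 16 for wild type and 29.5 and 48 for D538G. The quartiles overlapped widely, at 7 to 30 wild-type E2 regions against 9 to 36, and at 13 to 105 D538G regions against 23 to 135. The D538G values are tied to the rule, which asks for no D538G peak in the region itself.

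Chromosomes contributed unequally. The share of regions with at least 2 wild-type E2 peaks that were wild-type-only was highest on chromosome 18 (5.44%, 28 regions), X (5.31%, 22), 13 (5.25%, 32), 21 (4.45%, 17) and 5 (4.05%, 47). It was lowest on chromosome 20 (1.16%, 8 of 688), 22 (1.36%, 11) and 14 (1.51%, 14). Over all chromosomes it was 2.71%. Without the D538G clone 2 replicate 1 pair chromosomes 18 (5.63%) and 20 (1.16%) were again the highest and the lowest. By the mirrored rule the D538G-only share was 5.30% of the regions with peaks in at least 2 D538G lists, with 12.9% on X, 7.97% on 13 and 0.92% on 19, so X and chromosome 13 were high in both directions. Regions on 1 chromosome share their clones and lists and were not treated as replicates.

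**Figure D4:**
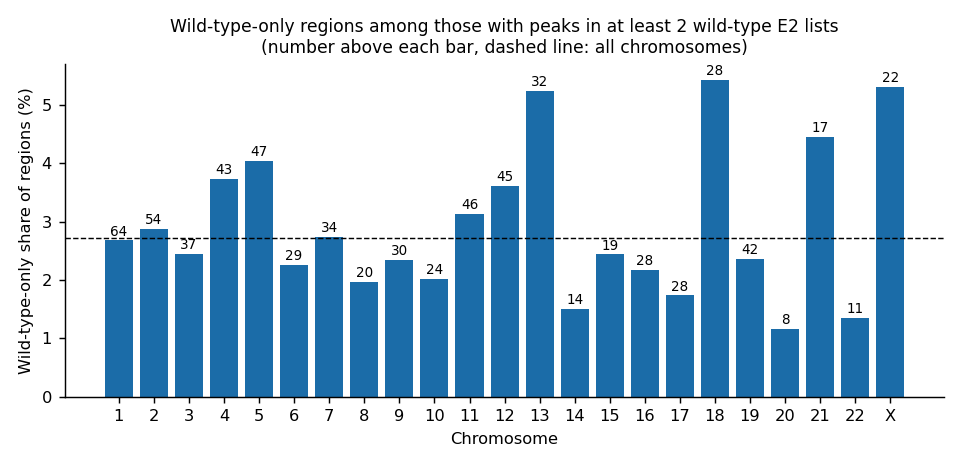
Bars give the percentage of regions with peaks in at least 2 wild-type E2 lists that were wild-type-only (vertical axis) by chromosome (horizontal axis), with the number of wild-type-only regions above each bar. The dashed line is the share over all chromosomes, 2.71%, and chromosomes 13, 18, 21 and X stand above 4.4%.

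The spacing of wild-type-only regions is given as counts, without like counts for the comparison regions. Another wild-type-only region lay within 10 kb of 83 (11.5%) and within 100 kb of 224 (31.0%). A run is a series of wild-type-only regions with no other region of at least 2 wild-type E2 peaks between them, whatever the distance. By that definition 607 stood singly, and there were 44 runs of 2, 5 runs of 3, 1 of 5 and 1 of 7. The set is 2.71% of the regions with at least 2 wild-type E2 peaks. How many runs that share alone would give was not worked out. The run of 5, named after its length was seen, spanned chr13:67637184-67714471. The run of 7, the fullest, spanned 68472 bp at chr21:17613813-17682284, and none of the 8 regions called there in any list had a D538G peak. Of its 7 wild-type-only regions, 4 had peaks in all 4 wild-type E2 lists.

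Along the chromosome 21 run the peaks were mostly modest. The second region, chr21:17631123-17631622, had signal values of 11.8, 10.9, 12.3 and 12.1, at percentiles 30.3, 15.2, 37.9 and 28.3. At chr21:17658143-17658503 the signal values were 6.28, 6.41, 7.92 and 8.98. The last 3 regions lay close together: chr21:17678058-17678461 with 13.2, 26.7, 7.76 and 29.1, chr21:17680630-17681030 with replicate 2 peaks alone of 10.1 and 19.5, and chr21:17681754-17682284, whose values are given above. The 2 flanking ones of these 3 thus went opposite ways between replicates, the first being higher in replicate 2 and the last in replicate 1 in both clones.

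Further along the chromosome D538G peaks were found again. At chr21:17792376-17792976 the wild-type E2 values were 15.2, 11.3, 13.3 and 17.8, and 2 D538G E2 lists had peaks. At chr21:17800441-17801521 the wild-type E2 values were 28.5, 34.1, 33.4 and 50.8, with peaks in 5 of 6 D538G E2 and 4 of 6 D538G DMSO lists. Beyond it, chr21:17803434-17803979 was again without a D538G peak in any of 12 lists. Its wild-type values, given above, lay below those of the site 1912 bp from it and above those of chr21:17792376-17792976 in every list. The rule fixes its lack of D538G peaks, so this order describes a single locus and was not tested.

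**Figure D5:**
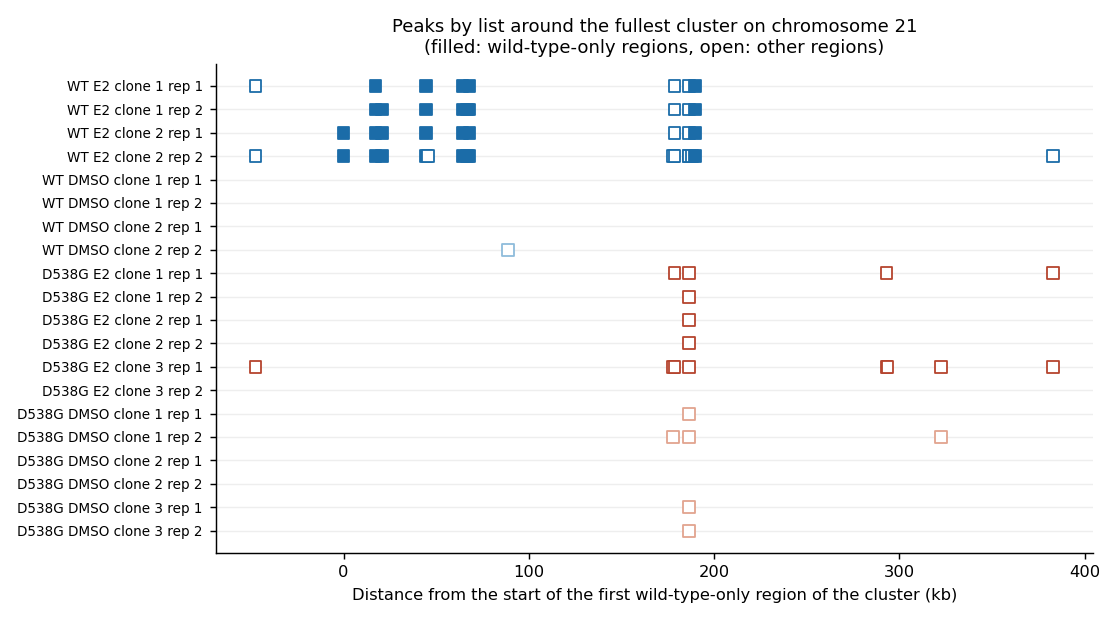
Each row is a peak list and each square a peak, placed by its distance in kb from the start of the first wild-type-only region of the chromosome 21 run (horizontal axis), filled for wild-type-only regions and open for others. From 0 to 68 kb squares are found in the wild-type E2 rows and in no D538G row, and the column near 187 kb shows peaks in 9 of 12 D538G lists.

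Genes, response elements and other sequence features of these regions were not analysed here, since the sequence and gene tables at hand are on another genome build than the lists.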

How the data were processed

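FLAG-ESR1 chromatin immunoprecipitation was measured in 20 libraries, with 1 deposited narrowPeak list each, so peaks were called per library. The 2 input libraries were not used here. The submitters' processing notes name hg19, Bowtie, MACS2 and DESeq2, with no role or version. The deposited lists give a signal value per peak, whose reference level is not given in the sources used here. The deposited lists also hold −log10 p and −log10 q values, all −log10 p values being at least 10.0458 by test, and a score equal to 10 times the −log10 p without decimals, which was not used. Read depth is unknown, so no counting interval is given, and a short list cannot be told apart from few bound sites.

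Of 356472 deposited peaks, 356437 lay on chromosomes 1 to 22 and X and were merged at an overlap of at least 1 bp, which gave the same 93599 regions as bedtools 2.31.1. Percentiles rank a peak's signal value within its list. Tests were exact two-sided permutation tests of held-out log2 ratios (0.5 added to counts), with Benjamini-Hochberg adjustment over 3 tests, and Fisher's exact test per region, adjusted over 35726 regions, at a threshold of 0.05. Both were run on simulated lists as a check of the code. For the held-out test the simulated lists had equal presence rates outside a planted set, whereas the real lists differ in length. They do not show how the test behaves on the real lists. Computations used Python 3.11.15, numpy 2.4.6, pandas 2.3.3 and scipy 1.17.1.

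The members and lists were chosen with earlier results of these data known. The rule for named regions took the 25 with peaks in most wild-type E2 lists and the highest mean percentile, the widest, the fullest cluster and 3 just outside the rule. The strongest, the farthest and the run of 5 were chosen after their values were seen. D538G E2 and DMSO lists of 1 clone and replicate number come from the same clone and were treated as pairs in an alternative. Their deviations from the group means correlated at r = -0.68 over 6 pairs. Wild-type and D538G lists share only a replicate number. Replicates of 1 clone may not be independent cultures, so p-values measure the spread between these lists. Alternatives were the number of lists, a −log10 p of at least 15, the 5000 strongest peaks, a 500 bp flank, a strength band, blocks, clone means and leaving out each list. Planned counts of response elements and nearby genes were not run, because no genome or annotation of the build of the lists was used here.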

Additional observations from a re-analysis of the deposited data

Results flagged for a closer look

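Of 18 combinations of a measure and a group of lists, 6 held a list whose gap to the next was large for the range of its group by Dixon's criterion. How often chance would flag such linked counts was not worked out. Apart from the held-out percentages, the counts are tied to the rule, which set these kinds of region apart by presence in the same lists. For regions with exactly 1 D538G list, the D538G counts are part of the definition. Those flags therefore describe the lists and are no test of the regions. Where all other lists of a group had 0, any value above 0 is flagged whatever its size. The held-out percentages also join lists read on 119 and on 1602 selected regions. All 6 concerned 2 lists. Among the 4 wild-type DMSO lists, clone 1 replicate 2 had peaks at 39 wild-type-only regions (0 in the other 3), at 829 of the regions with 1 D538G peak (the next had 4), at 66.5% of the comparison regions (the next had 3.76%) and at 1.68% of the held-out selected regions (0% in the others). Among the 6 D538G DMSO lists, clone 1 replicate 2 had peaks at 1277 of the regions with 1 D538G peak (the next had 123) and at 18.5% of the held-out selected regions (the next had 5.04%). Both lists were long, with 29117 and 50380 peaks, and the part of list length in these values was not tested.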

How the results depend on the processing

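The number of wild-type-only regions, 722, was 147 with at least 3 wild-type E2 lists, 45 with all 4, 1149 with the 5000 strongest peaks of each list, 119 with the lists of replicate number 1 alone and 1602 with those of replicate number 2 alone. Leaving out 1 list gave 205 to 2095. It stayed between 578 and 781 with no wild-type DMSO peak, a −log10 p of at least 15, no D538G peak within 500 bp, or merging of wild-type E2 peaks alone. Of the 25 named regions, 20 were kept with the 5000 strongest peaks and 23 with the 500 bp flank. Most other settings cannot drop a region with 4 wild-type E2 peaks and no other peak. The mean of the list medians of strength, 27.6, was 25.1 when ranked by −log10 p. The 318 regions with more frequent wild-type peaks became 669 without D538G E2 clone 1 replicate 1 and 829 without clone 3 replicate 1, and ranged from 214 to 829 over lists left out. In each of these fits 0 regions passed adjustment.

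The held-out difference between wild-type E2 and D538G DMSO, 4.32, kept its direction in all alternatives run. It lost its call in 11 alternatives and kept it in 9. Besides lists left out, the call was lost in these settings (adjusted exact permutation p): 3.61 in the strength band (0.0714), 4.32 with the replicate block (0.06), 4.32 over clone means (0.3, where the smallest unadjusted p is 0.1), 5.40 with replicate number 1 alone and 3.24 with replicate number 2 alone (0.3 each). Leaving out 1 list gave 3.68 to 4.82. Wild-type E2 against D538G E2 ran from 1.77 to 3.08 over lists left out and had an exact permutation p of 0.05 with the replicate block (adjusted p = 0.075). D538G E2 against DMSO ran from 1.20 to 2.55, reversed to -0.42 with replicate number 2 alone and had an exact permutation p of 0.406 with pairs kept together in the block. These 2 comparisons were past the threshold in no alternative. The cause of these changes was not tested. With unknown read depth, absence from a D538G list means only that no peak was called.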
